A study of Mus musculus with 7 samples.

Results

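The respiratory chain passes electrons from NADH and succinate to oxygen in the inner mitochondrial membrane and pumps protons as it does so. Complex I takes electrons from NADH and complex II from succinate. Complex III passes them to cytochrome c, and complex IV hands them to oxygen. Colonocytes feed the chain largely by oxidising butyrate made by gut bacteria.

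The genes described here are the nuclear genes for subunits of complexes I to IV and for somatic cytochrome c. They were chosen by symbol: those starting with Ndufa, Ndufb, Ndufc, Ndufs or Ndufv (complex I, the Ndufaf assembly factors left out), Uqcr (complex III) or Cox4 to Cox8 (complex IV), and Sdha, Sdhb, Sdhc and Sdhd (complex II) and Cycs (cytochrome c). Of 18036 genes with at least 1 read in some library, 67 met the rule: 38 of complex I, 4 of complex II, 8 of complex III, 16 of complex IV, and Cycs. A further 15 genes of the reference matched the rule but were not listed in the tables, most of them pseudogenes or near-copies such as Cox5b-ps, Cox7c-ps1, Ndufa12-ps, Ndufab1-ps, Ndufb4b, Ndufs5-ps and Uqcrh-ps1, and also Ndufb1 and the testis forms Cox7b2 and Cox8c. Unique reads cannot be assigned where such copies are identical, so the levels of Cox5b, Cox7c, Ndufa12, Ndufab1, Ndufb4, Ndufs5 and Uqcrh are uncertain to that extent. The 13 subunit genes of the mitochondrial genome were not analysed here.

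RNA came from epithelium scraped off the colon muscle layer of female hCYP1A mice, C57BL/6 animals whose Cyp1a genes are replaced by the human ones, which were 6 weeks old at the start. Each of the 7 libraries was 1 pool of RNA from 3 mice. The control library came from untreated mice. The 3 DSS libraries came from mice given 1.5% dextran sulfate sodium, which injures the colon epithelium, in drinking water for 5 days and killed 1, 3 or 7 days later. The 3 PhIP/DSS libraries came from mice dosed 2 times with PhIP, a carcinogen of cooked meat, at 100 mg/kg body weight and 4 days apart, then the same DSS course a week later, with tissue taken at the same 3 time points. Pathology is labelled normal in the control, colitis in the 4 libraries of days 1 and 3, and partial colitis in the 2 of day 7. All values below are read counts or RPKM (unique reads scaled by gene length and library total), and every value of 1 library has no replicate.

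Libraries held 7664276 to 8781886 unique reads, of which the 67 genes took 0.786% to 1.02%. Epithelial markers (Epcam, Cdh1, keratins, Vil1, Cdx2, Lgals4) summed to between 7522 and 9048 RPKM in every library. Markers of other cells were lower but uneven. The PhIP/DSS day 1 library had the highest sums of 6 fibroblast markers (152 RPKM, against 6.66 in the control and 31.8 to 79.2 in the others) and of 7 fat cell markers (127 RPKM, against 16.1 and 2.47 to 6.56). Neutrophil markers ranged from 2.82 RPKM in the control to 1101 in DSS day 3 and 756 in PhIP/DSS day 1.

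In the control library complexes III and IV had the highest levels and complex I the lowest, with medians of 252 RPKM for complex III, 216 for complex IV, 167 for complex II and 98.2 for complex I. The 6 highest single genes were Cox6a1 (1064 RPKM), Cox8a (738), Cox5b (626), Uqcrb (575), Cox4i1 (560) and Cox6b1 (536), of which 5 belong to complex IV. Cycs stood at 73.5 RPKM. Among the genes expressed in most tissues, complex I held the lowest levels, down to Ndufs4 at 25.7 RPKM and Ndufs5 at 13.05. RPKM is scaled by gene length, so these levels may be set side by side, but only roughly. The levels of Cox5b and Ndufs5, among others, carry the uncertainty from near-identical copies given above, and 1 library gives no error.

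The summed level of the 67 genes was highest on day 1 and lowest on day 7 in both treated arms. Relative to the control, the summed RPKM was 1.10, 0.963 and 0.861 times on days 1, 3 and 7 after DSS. In the PhIP/DSS arm it was 1.12, 1.00 and 0.909 times. Complex I followed at 1.14, 0.970 and 0.866 times in the DSS arm and 1.16, 1.00 and 0.909 times in the PhIP/DSS arm. Of the 4 complexes, complex III had the widest span, from 1.17 times on day 1 to 0.842 on day 7 after DSS and from 1.17 to 0.902 after PhIP/DSS. Complex IV was closer to the control on day 1, at 1.02 times in the DSS library and 1.07 times in the PhIP/DSS library, and stood at 0.861 and 0.914 times on day 7. Complex II stood at 1.09 and 1.03 times on day 1 and at 0.859 and 0.866 times on day 7. Scaled to TPM, which makes every library sum to the same total, all genes of a library shift together, by between -0.04 and -0.16 on the log2 scale relative to the control, and the sum of the 67 genes became 1.03, 0.916 and 0.835 times control after DSS and 1.00, 0.940 and 0.865 times after PhIP/DSS. The order day 1, day 3, day 7 of this sum was the same in both arms on either scale. Its excess over the control on day 1 was smaller in TPM, and not every complex kept one. In TPM on day 1, after DSS and PhIP/DSS, complex I stood at 1.07 and 1.04 times control and complex III at 1.10 and 1.05. Complex II stood at 1.03 and 0.922 times, and complex IV lay below the control in both arms, at 0.966 and 0.957.

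**Figure D1:**
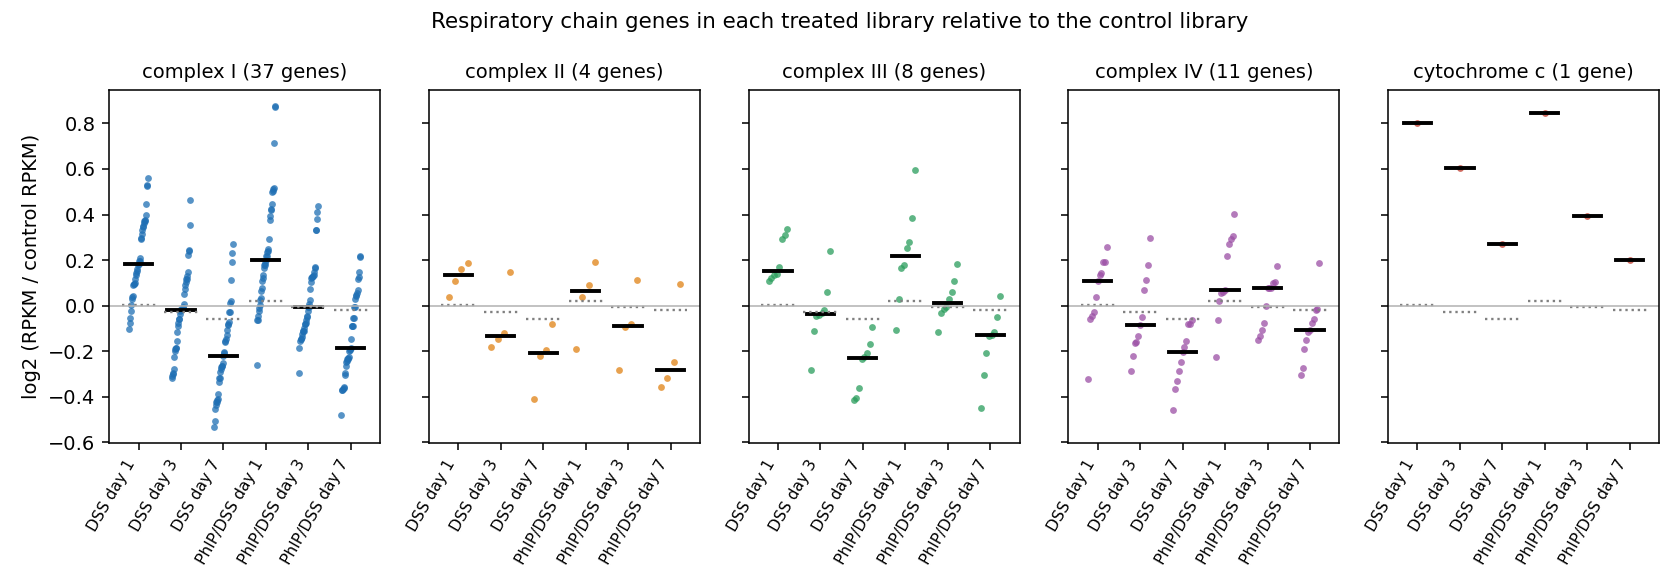
Log2 ratio of RPKM in each treated library to the control library (y axis) for the 61 genes expressed in most tissues, by complex; points are genes, black bars the median of the complex, dotted grey bars the median of all 12061 genes tested. Medians of complexes I to IV lie above 0 on day 1 and below 0 on day 7 in both arms, and Cycs lies above 0 in all 6 libraries.

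The day pattern ran through most of the genes. A filter of at least 1 RPKM in at least 2 libraries left 12061 genes, 64 of the 67 among them. Cox4i2, Cox6a2 and Cox8b did not pass it, and Ndufa4l2 passed only through treated libraries. RPKM was higher on day 1 than on day 3 and on day 3 than on day 7, in both arms, for 47 of the 64, beside 15.3% of all genes tested. This held for 26 of 38 complex I genes, 4 of 4 of complex II, 8 of 8 of complex III, 8 of 13 of complex IV, and Cycs. Both day 1 libraries lay above both day 7 libraries for 56 of the 64, beside 31.9% of all genes. The 8 genes for which they did not were Cox6c, Cox7a1, Cox7a2l, Ndufa1, Ndufa4l2, Ndufa6, Ndufb4 and Ndufs3. Within the DSS arm, day 7 was below day 1 for 63 of 64 (52.9% of all genes), with a median log2 ratio of -0.40 against -0.03 for all genes. Within the PhIP/DSS arm it was below for 57 of 64 (52.3% of all genes), with a median of -0.34 against -0.03.

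One model over all 7 libraries (edgeR's quasi-likelihood test, with a level for the control and each day and 1 PhIP term) gave 5 comparisons, in which a day is the mean of both arms. No gene passed a Benjamini-Hochberg adjusted p of 0.05 in any of the 5, so 0% of the 12061 genes and 0 of the 64 were called. DESeq2 called 0 of the 64 on day 3 against the control (3.63% of all genes), on day 7 (3.81%) and for PhIP/DSS against DSS (0.108%), and its calls in the other 2 comparisons are given below. With limma on log2(RPKM + 1), 0 of the 64 were called in any of the 5. What follows therefore describes directions, sizes and unadjusted p-values. The spread in this model is how much the arms differ from day to day, with 2 residual degrees of freedom, and the p-values say nothing about differences between single mice.

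Day 7 against day 1 was the comparison in which the respiratory chain genes stood farthest from all genes. The fitted log2 fold change was below 0 for 60 of 64 genes (49.8% of all genes tested), and its median was -0.33, against 0.00 for all genes. An unadjusted p under 0.05 was reached by 42 of the 64 (26.3% of all genes), and all 42 were lower on day 7, whereas of all genes 1693 were lower and 1479 higher at that p. Complex III had the lowest median, -0.42, with 8 of 8 genes lower. Complex I had a median of -0.37 with 36 of 38 lower, complex II -0.28 with 4 of 4 lower, and complex IV -0.28 with 11 of 13 lower. Differences between complexes were not tested. The smallest adjusted p among the 64 genes was 0.093 by edgeR. DESeq2, as the other tool, called 7 of the 64, all lower on day 7 (5.75% of all genes in either direction), among them Cycs, Uqcrfs1, Uqcr10, Uqcrq, Ndufs7 and Cox5b. Without the DSS day 1 library edgeR called 18 of the 64 (28.1%), near the 24.8% of all genes called in the same fit. Without the PhIP/DSS day 1 library it called 7 (10.9%, beside 6.52% of all genes). The count at an unadjusted p under 0.05 was 11 without the DSS day 7 library (11.9% of all genes) and 15 without the PhIP/DSS day 7 library (7.38%), while the median stayed between -0.38 and -0.31 with any 1 library left out.

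**Figure D2:**
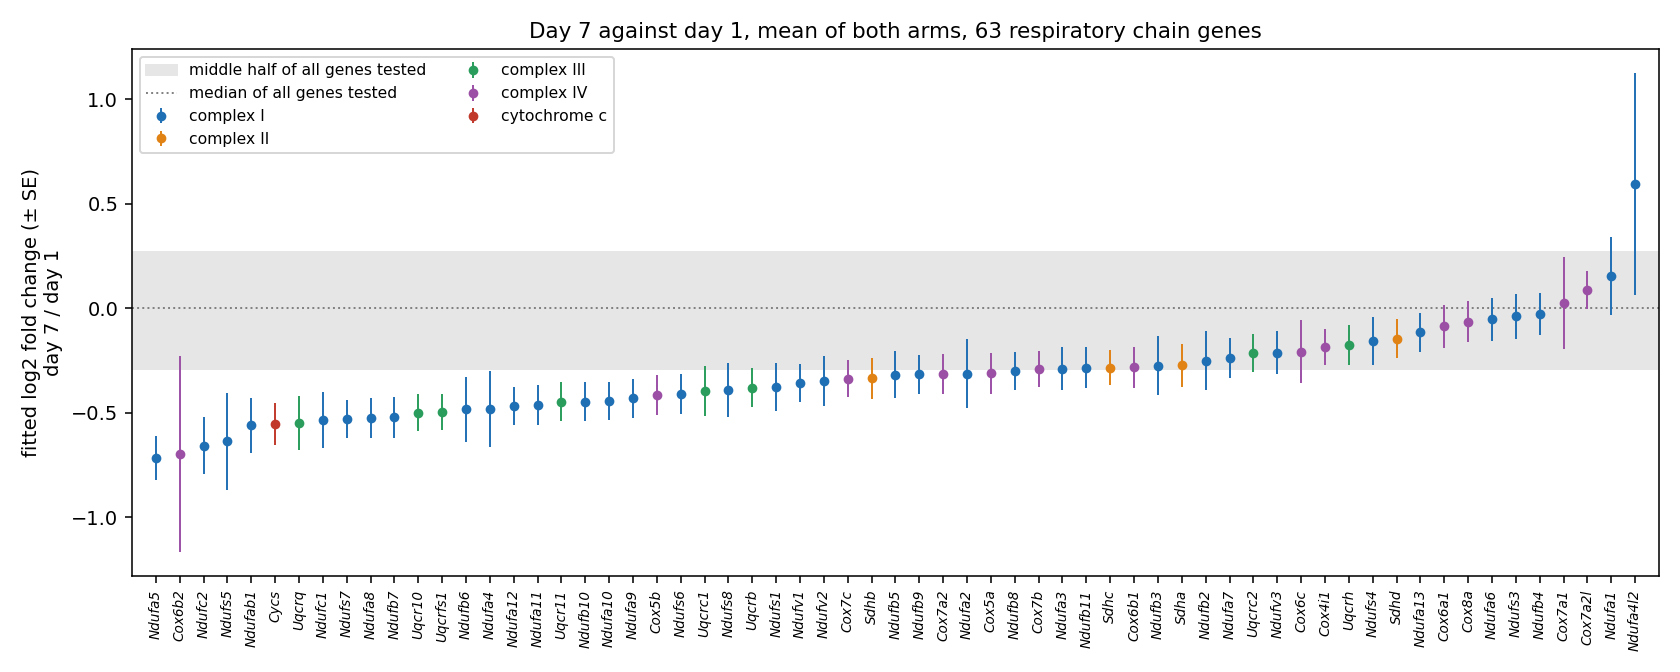
Fitted log2 fold change of day 7 against day 1 with its standard error (y axis) for 63 of the 64 genes tested (x axis), coloured by complex; the grey band holds the middle 50 percent of all 12061 genes and the dotted line is their median. All but 4 of the genes drawn lie below 0, from Ndufa5 at -0.72 to Ndufa4l2 at 0.60, whose standard error is 0.53.

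Cell type markers differed between the same days. The 5 absorptive colonocyte markers (Slc26a3, Car1, Car4, Aqp8, Slc9a3), all 5 with reads in every library, summed to 2660 and 2860 RPKM on day 1 and to 1390 and 1408 on day 7, against 2495 in the control. That difference came mostly from Car1, at 1527 and 1881 RPKM on day 1 against 668 and 345 on day 7, whereas Slc26a3 was at 175 and 139 on day 1 and 110 and 158 on day 7. On day 1 the single markers parted from the control in both directions. Car1 (368 RPKM in the control) and Slc9a3 (43.8, with 104 and 91.6 on day 1) were higher. Slc26a3 (470 in the control), Car4 (1326, with 579 and 482 on day 1) and Aqp8 (287, with 274 and 267) were lower. The 4 goblet cell markers (Muc2, Clca1, Fcgbp, Tff3) went the other way between days 1 and 7. They summed to 2968 and 2397 RPKM on day 1, 5938 and 5384 on day 7, and 6037 in the control. Their part in the respiratory chain levels was not tested, and in these bulk samples fewer cells of a type and less RNA per cell cannot be told apart.

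Cycs encodes cytochrome c, the small carrier that ferries electrons from complex III to complex IV and also triggers caspase activation when it leaves the mitochondrion. It lies on chromosome 6, at chr6:50562563-50566569 of GRCm38.p6. Its level was 73.5 RPKM in the control, 128, 112 and 88.8 on days 1, 3 and 7 after DSS, and 132, 96.6 and 84.4 after PhIP/DSS. All 6 treated libraries lay above the control, and both arms stepped down from day 1 to day 7 without reaching it. The fitted log2 fold change against the control was 0.82 ± 0.13 (SE) on day 1, 0.52 ± 0.13 on day 3 and 0.26 ± 0.13 on day 7, with edgeR adjusted p of 0.071, 0.179 and 0.363. Against day 1, day 7 was at -0.55 ± 0.10 (edgeR adjusted p = 0.093). DESeq2 gave adjusted p of 0.00018 for day 1 against the control, where it called Cycs alone of the 64 (10.3% of all genes), and 0.0030 for day 7 against day 1. After Ndufa4l2, which rests on few reads, it had the largest excess on day 1 of the 64 genes.

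Cycs is a textbook target of NRF1 (nuclear respiratory factor 1), a transcription factor that binds a palindrome-like GC-rich site in the promoters of many respiratory chain genes. The 250 bases before its RefSeq start (GRCm38.p6, chr6:50566570-50566819, minus strand) are shown because Cycs had the largest well-measured difference from the control, with the letters GCATGCGC in capitals.
Cycs: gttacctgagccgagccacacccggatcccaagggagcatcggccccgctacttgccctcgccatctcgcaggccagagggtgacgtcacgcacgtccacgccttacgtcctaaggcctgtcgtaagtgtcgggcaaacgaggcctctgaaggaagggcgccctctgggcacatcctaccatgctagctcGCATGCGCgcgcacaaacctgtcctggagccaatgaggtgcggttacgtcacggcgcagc

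The same letters, searched on both strands from 250 bases before to 50 after the start, stood in 8 of the 54 promoters of these genes in the RefSeq table (14.8%), beside 5.91% of the 9605 tested genes with a promoter there. The 8 were Cycs, Cox6a1, Ndufa6, Ndufa8, Ndufa11, Sdhb, Uqcr11 and Uqcrc1. The match lay 162 bases before the start in Cox6a1, 83 in Ndufa6, 60 in Cycs and in Ndufa11, 54 in Sdhb, 8 in Ndufa8 and 4 in Uqcr11, and after the start in Uqcrc1. The surrounding 28 or 30 bases of 6 of them, on the gene's strand, show how little is shared outside the site, with the match in capitals (GCGCATGC is its reverse complement, and GCGCATGCGC holds both).
Cox6a1 (chr5:115349101-115349130): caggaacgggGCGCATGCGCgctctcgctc
Ndufa11 (chr17:56717692-56717721): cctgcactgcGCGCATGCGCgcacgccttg
Ndufa6 (chr15:82354357-82354384): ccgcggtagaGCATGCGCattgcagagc
Ndufa8 (chr2:36049329-36049356): cgctggagacGCATGCGCagatggtacc
Sdhb (chr4:140961207-140961234): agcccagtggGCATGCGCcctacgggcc
Uqcr11 (chr10:80406808-80406835): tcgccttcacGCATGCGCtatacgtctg

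The 8 genes with this match took different values on day 1 but lay on the same side of 0 between days 7 and 1. On day 1 against the control the fitted log2 fold change was 0.82 for Cycs, 0.33 for Uqcr11, 0.32 for Ndufa8, 0.15 for Ndufa11, 0.09 for Sdhb, 0.00 for Uqcrc1, -0.03 for Ndufa6 and -0.06 for Cox6a1. In day 7 against day 1 all 8 were below 0, like most of the 64 genes: -0.55 for Cycs, -0.53 for Ndufa8, -0.46 for Ndufa11, -0.45 for Uqcr11, -0.40 for Uqcrc1, -0.34 for Sdhb, -0.09 for Cox6a1 and -0.05 for Ndufa6. An ETS-type match (CCGGAAG, the core bound by GABP, or CTTCCGG on the other strand) stood in 11 of 54 promoters (20.4%, beside 20.6% of tested genes). The letters AAGATGGCG or CGCCATCTT, the core of the YY1 motif, stood in 5 of 54 (9.26%, beside 3.68%), and all 5 were complex I genes: Ndufa9, Ndufc1, Ndufs4, Ndufs6 and Ndufs7. A match is a run of letters and not a measured binding site.

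Against the control, day 1 had 51 of 64 genes above 0 (50.6% of all genes tested), with a median log2 fold change of 0.18 against 0.01 for all genes. At an unadjusted p under 0.05, 11 were higher (16.4% of all genes) and 0 lower (16.2%), so the share of respiratory chain genes, 17.2%, was near that of all genes for higher levels. By complex the medians were 0.19 for complex I, 0.20 for complex III, 0.09 for complex II and 0.04 for complex IV. Day 3 had 33 genes above 0 and 31 below (50.8% of all genes above), with a median of 0.00, and Cycs at an unadjusted p under 0.05 (19.0% of all genes). Ndufa4l2 is left out of the counts by p on days 3 and 7 against the control, since it passed the filter only through treated libraries. It remains in the counts of genes above 0 and above the control, where passing in this way favours a place above the control. Of the 61 genes expressed in most tissues, which leave it out, 50 were above 0 on day 1 and 32 on day 3. With library totals in place of TMM factors 27 of the 64 were above 0 on day 3. On day 7, 53 of 64 genes were below 0 (51.1% of all genes), with a median of -0.15 against -0.01, and 13 were lower at an unadjusted p under 0.05 (7.99% of all genes) and 0 higher (9.22%). All 8 complex III genes, 12 of 13 complex IV genes and 30 of 38 complex I genes were below 0 on day 7. In RPKM, both day 1 libraries lay above the control for 48 of 64 genes (43.6% of all genes) and both day 7 libraries below it for 48 (45.0%). All 6 treated libraries lay above the control for 7 genes, Cycs, Ndufa4, Ndufa4l2, Ndufa13, Ndufb6, Ndufs3 and Ndufs4 (25.4% of all genes), and below it for 5, Cox6a1, Cox7a1, Cox7a2l, Ndufb4 and Ndufb11 (29.7% of all genes). The 3 comparisons share the 1 control library, so a chance deviation of that library enters each of them, and day 7 against day 1 does not use it.

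Complex I is the entry point for NADH. Its catalytic core, the subunits that hold the flavin and the iron-sulfur clusters or line the quinone site, is represented by 7 genes. In day 7 against day 1 all 7 were below 0 (49.8% of all genes tested), with a median of -0.38. An unadjusted p under 0.05 by edgeR was reached by 6 of them (26.3% of all genes), beside 20 of the other 31 complex I genes. Ndufs7, which carries the last cluster before the quinone, was at 143 RPKM in the control, 147, 118 and 98.7 after DSS and 151, 128 and 103 after PhIP/DSS. Both day 1 libraries lay just above the control and both day 7 libraries below every other one. Its log2 fold change was -0.48 ± 0.11 on day 7 against the control (edgeR adjusted p = 0.171) and -0.53 ± 0.09 against day 1 (0.093). Ndufv1, which binds NADH and the flavin, was at 81.7 RPKM in the control and 81.0 to 83.2 on day 1, then 69.9 and 61.4 after DSS and 73.7 and 63.8 after PhIP/DSS. Ndufv2, Ndufs1 and Ndufs8, which hold further iron-sulfur clusters, had log2 fold changes of -0.35, -0.38 and -0.39 in day 7 against day 1. Ndufs3, a core subunit without a cluster, did not share this course: it was at 116 RPKM in the control and at 131 to 150 in the 6 treated libraries, with -0.04 ± 0.11 between day 7 and day 1.

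Most of the other 31 complex I genes tested encode accessory subunits, which stabilise the complex or serve its assembly. The 31 include Ndufa4, later placed in complex IV, and its isoform Ndufa4l2. Of the 31, 29 were below 0 in day 7 against day 1, with a median of -0.32. Ndufa5, a matrix-arm subunit, had the lowest value of the 64 genes. It was at 59.9 RPKM in the control, 86.2, 64.9 and 51.8 after DSS and 98.4, 66.4 and 57.7 after PhIP/DSS. Day 1 was above and day 7 below the control in both arms, and the log2 fold change was -0.72 ± 0.11 from day 1 to day 7 (edgeR adjusted p = 0.093) and 0.61 ± 0.13 on day 1 against the control (0.074). Ndufc2, a membrane-arm subunit, was at 88.1 RPKM in the control, 111, 95.5 and 72.0 after DSS and 120, 77.4 and 71.3 after PhIP/DSS, at -0.66 ± 0.14 between days 7 and 1. Ndufb6, another membrane-arm subunit, was at 39.1 RPKM in the control and at 43.2 to 71.7 in the treated libraries, highest in PhIP/DSS day 1, with 0.70 ± 0.20 on day 1 against the control. Ndufs4, an accessory subunit whose loss in mice causes a Leigh-like disease, stood at 25.7 RPKM in the control and 29.8 to 35.0 in the treated libraries. Ndufa1 had the highest value in day 7 against day 1 after Ndufa4l2, 0.16 ± 0.19, with 72.1 RPKM in the control, 72.1, 57.8 and 70.7 after DSS and 60.2, 78.4 and 73.6 after PhIP/DSS, which gives no shared course in the 2 arms.

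Complex II, or succinate dehydrogenase, is the one complex that also works in the tricarboxylic acid cycle, and all its subunits are nuclear. Sdha, the flavoprotein, was at 149 RPKM in the control, 153, 135 and 112 after DSS and 131, 123 and 116 after PhIP/DSS. Only DSS day 1 lay above the control. Sdhb, the iron-sulfur subunit, was at 202 RPKM in the control, 226, 178 and 173 after DSS and 207, 191 and 162 after PhIP/DSS. Sdhc, a membrane anchor, was at 184 RPKM in the control, 198, 169 and 161 after DSS and 196, 172 and 155 after PhIP/DSS. These 3 genes stood at or above the control on day 1 in at least 1 arm and below it on days 3 and 7 in both. Sdhd, the other membrane anchor, was at 150 RPKM in the control, 171, 166 and 142 after DSS and 171, 162 and 160 after PhIP/DSS. Its day 7 libraries lay on either side of the control. In day 7 against day 1 the log2 fold changes were -0.27 ± 0.10 for Sdha, -0.34 ± 0.10 for Sdhb, -0.28 ± 0.08 for Sdhc and -0.15 ± 0.09 for Sdhd.

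Complex III, the cytochrome bc1 complex, takes electrons from ubiquinol, and all 8 of its genes here shared the order day 1, day 3, day 7 in both arms. Uqcrfs1, the Rieske iron-sulfur protein and its catalytic subunit among the 8, was at 138 RPKM in the control, 151, 136 and 107 after DSS and 164, 136 and 111 after PhIP/DSS. Day 1 was above the control, day 3 just below it and day 7 lowest in both arms, with -0.50 ± 0.09 from day 1 to day 7 (edgeR adjusted p = 0.093, DESeq2 adjusted p = 0.014). The core proteins Uqcrc1 and Uqcrc2, which form the matrix base of the complex, were at 260 and 187 RPKM in the control. Uqcrc1 was at 280, 214 and 196 after DSS and 242, 240 and 190 after PhIP/DSS, and Uqcrc2 at 204, 182 and 160 and at 191, 183 and 173. Among the small subunits, Uqcrq, which sits beside cytochrome b, had the largest excess on day 1, at 307 and 368 RPKM against 243 in the control, with 228 and 222 on day 7. Uqcrh, the hinge protein at the cytochrome c docking side, had the smallest difference between days 7 and 1, -0.18 ± 0.09. Cyc1, the cytochrome c1 subunit that the symbol rule leaves out, ran alongside at 213 RPKM in the control, 247, 195 and 170 after DSS and 244, 211 and 167 after PhIP/DSS.

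**Figure D3:**
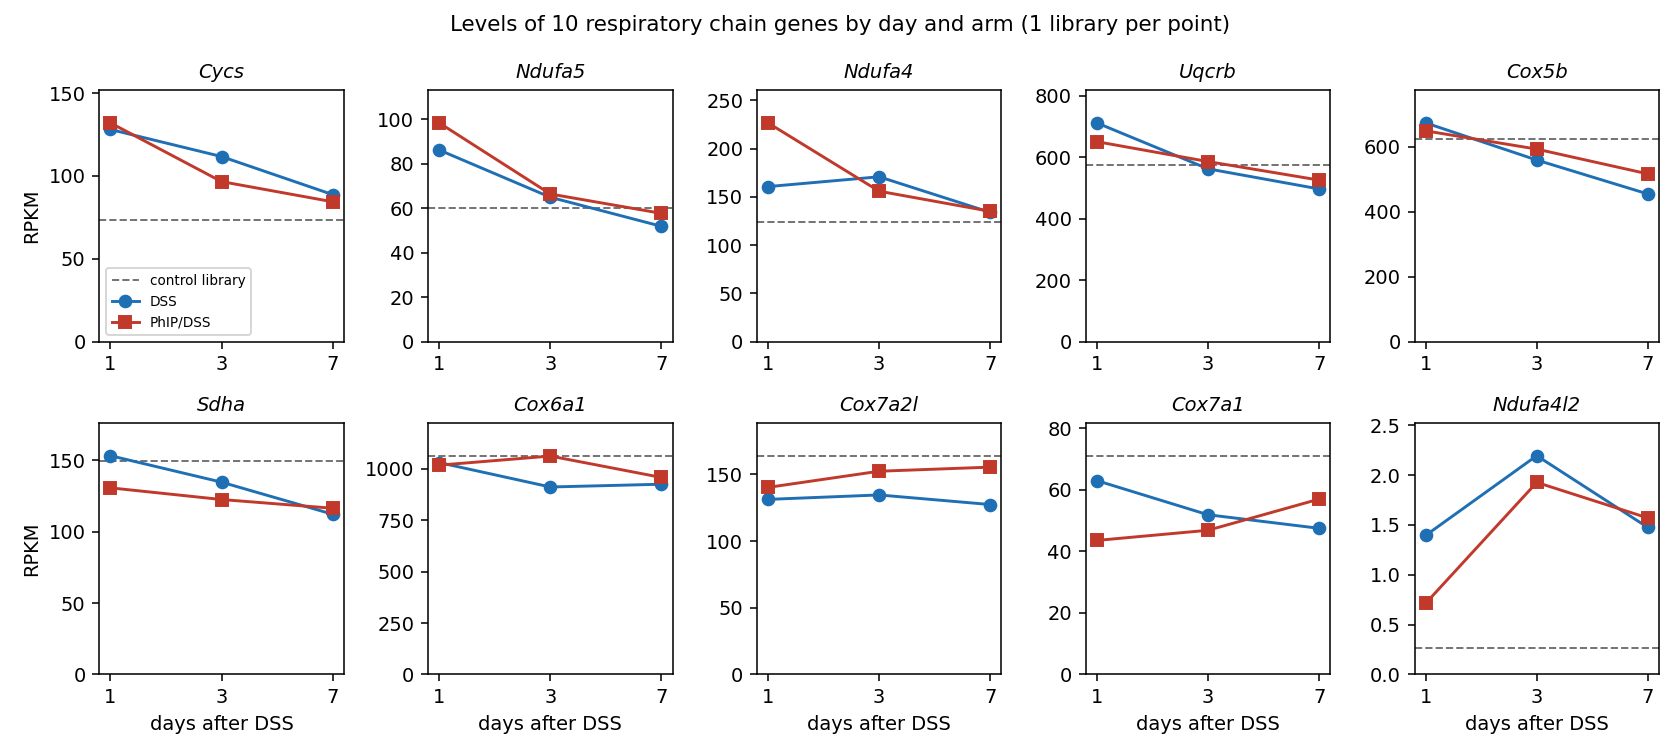
RPKM (y axes, from 0) of 10 genes on days 1, 3 and 7 after DSS (x axes) in the DSS arm (blue circles) and the PhIP/DSS arm (red squares), with the control library as a dashed line; each point is 1 library. Cycs stays above the control throughout, Ndufa5 and Uqcrb cross it from above, Cox7a2l and Cox7a1 stay below it, and the 2 arms of Cox7a1 run in opposite directions.

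Complex IV, cytochrome c oxidase, reduces oxygen, and its catalytic subunits are mitochondrially encoded. Its nuclear subunits regulate and stabilise it. Cox5b was at 626 RPKM in the control, 674, 560 and 455 after DSS and 650, 593 and 517 after PhIP/DSS, above the control on day 1 and below it afterwards, with -0.41 ± 0.10 from day 1 to day 7. Cox5a was at 281 RPKM in the control, 321, 295 and 266 after DSS and 371, 297 and 278 after PhIP/DSS, at -0.31 ± 0.10. Cox4i1, the subunit through which ATP inhibits the enzyme, was at 560 RPKM in the control, 537, 511 and 459 after DSS and 567, 511 and 490 after PhIP/DSS, at -0.19 ± 0.09. The abundant Cox6a1 and Cox8a differed little: Cox6a1 was at 1064 RPKM in the control and at 912 to 1062 in all 6 treated libraries, and Cox8a at 738 in the control and 684 to 779 in the treated libraries. Cox6b1, Cox7a2, Cox7b and Cox7c stood at -0.28, -0.31, -0.29 and -0.34 in day 7 against day 1, each with day 1 above the control in both arms.

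Cox7a2l encodes a relative of the Cox7a subunits that joins complexes III and IV into a supercomplex and is known to be truncated in C57BL/6 mice. It was at 164 RPKM in the control, 131, 135 and 127 after DSS and 140, 152 and 155 after PhIP/DSS. All 6 treated libraries lay below the control, and the 3 PhIP/DSS libraries lay above the 3 DSS libraries. It was the only gene of the 64 with that separation of the arms, which 3.38% of all genes tested showed, and 0 of 64 showed the opposite one (2.53% of all genes). The log2 fold change was 0.17 ± 0.07 for PhIP/DSS against DSS (edgeR adjusted p = 0.998) and -0.28 ± 0.11 for day 1 against the control (0.159).

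Several subunits of complexes I and IV have a second gene with restricted expression, in muscle, brown fat, lung or testis, or under low oxygen. Cox7a1, the heart and skeletal muscle partner of Cox7a2, was the only one at a level comparable with its partner. It was at 71.0 RPKM in the control, 63.0, 51.9 and 47.5 after DSS and 43.5, 46.8 and 56.9 after PhIP/DSS. All treated libraries were below the control, and the order of days was reversed between the arms. Its log2 fold change against the control was -0.43 ± 0.26 on day 1, -0.50 ± 0.26 on day 3 and -0.41 ± 0.26 on day 7 (edgeR adjusted p from 0.301 to 0.461). Cox7a2 itself was at 159 RPKM in the control and at 143 to 192 in the treated libraries. Of 5 skeletal muscle markers, Ckm and Tnnt3 had 0 reads in all 7 libraries, which allows up to 3 reads in each. Mb was at most at 0.113 RPKM, Mylpf at most at 1.26, and Acta1 was at 18.9 RPKM in the control and 6.67 to 13.5 in the treated libraries. The 8 smooth muscle markers summed to 19.6 to 28.5 RPKM, with Myh11 and Des under 1 RPKM in every library. The highest were Smtn, at 10.9 RPKM in the control and 6.70 to 9.58 in the treated libraries, and Tagln, at 8.72 and 6.80 to 10.2. Acta2 was at 1.42 RPKM in the control and 2.54 to 7.16 in the treated libraries. The part of muscle RNA in the Cox7a1 level was not tested.

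The partner pairs of complex IV otherwise differed by a wide margin. Cox6b2, the testis form, was at 4.26 RPKM in the control (18 reads), 3.74, 3.31 and 3.08 after DSS and 4.46, 2.37 and 1.94 after PhIP/DSS, with 9 to 21 reads in each treated library. Its ratio to the control on day 7 was 0.722 (95% exact counting interval 0.332 to 1.54) after DSS and 0.456 (0.181 to 1.07) after PhIP/DSS, so no difference was detectable at this depth. Cox4i2, the lung form, had 1 to 4 reads in each library, and Cox6a2, the heart and muscle form, 0 to 3. Their partners Cox4i1, Cox6a1 and Cox6b1 were at 459 RPKM or more in every library.

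Cox8b, the muscle and brown fat partner of Cox8a, had reads in only 2 of the 7 libraries. It had 26 reads (7.95 RPKM) in PhIP/DSS day 1, 1 read (0.341 RPKM) in the control and 0 in the other 5. The ratio of PhIP/DSS day 1 to the control was 23.3, with an exact 95% counting interval of 3.83 to 957. The same library held fat cell transcripts that the other 6 held at low levels or not at all. Ucp1, the brown fat uncoupling protein, was at 7.77 RPKM there, 0.0794 in the control and 0 in the other 5. Cidea, a lipid droplet protein of brown fat, was at 5.13 RPKM and at most 0.208 elsewhere. The 4 brown fat markers also included Elovl3 and Ppara, which did not share this size of excess. Elovl3 was at 0.125 RPKM in PhIP/DSS day 1 and 0 elsewhere. Ppara went the other way, highest in the control at 5.55 RPKM and lower in PhIP/DSS day 1. All 7 general fat markers (Adipoq, Plin1, Plin4, Cfd, Fabp4, Cidec, Lep) had reads both in PhIP/DSS day 1 and in the control. Cfd was at 55.2 RPKM against 8.45 in the control, and Fabp4 at 51.1 against 4.04. Lep differed little, at 0.108 RPKM against 0.0801. Cidec was at 11.1 RPKM, against 1.46 in the control and 1.61 to 4.95 in the other 5. The part of fat cells in the Cox8b reads was not tested.

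**Figure D4:**
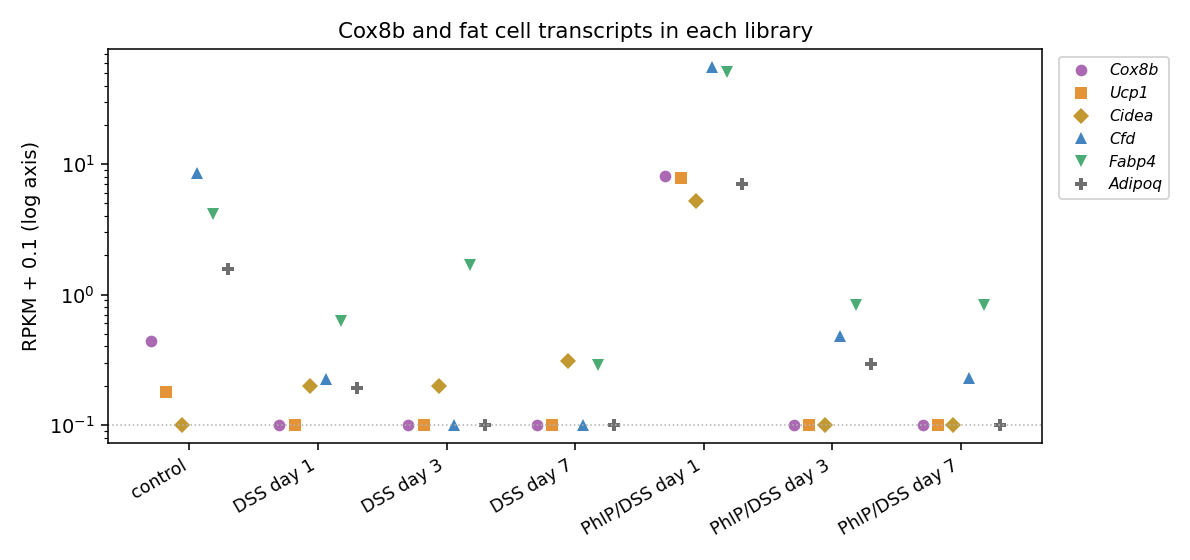
RPKM plus 0.1 on a log axis of Cox8b and of 5 fat cell transcripts (Ucp1, Cidea, Cfd, Fabp4, Adipoq) in each of the 7 libraries; each point is 1 library and the dotted line marks 0 RPKM. All 6 transcripts are highest in PhIP/DSS day 1, where Cox8b and Ucp1 stand at 7.95 and 7.77 RPKM.

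Ndufa4l2, which is induced by HIF1 under low oxygen and is best known from pericytes, had 2 reads in the control (0.265 RPKM), 12, 19 and 12 reads after DSS (1.39, 2.19 and 1.47 RPKM) and 6, 16 and 13 reads after PhIP/DSS (0.713, 1.93 and 1.57 RPKM). All 6 treated libraries lay above the control, and day 3 was highest in both arms. With 2 reads in the control, the size of any difference from it is very uncertain. Ndufa4l2 entered the tests only because of its treated libraries, so no ratio, interval or p against the control is given. The 6 pericyte markers summed to 4.70 RPKM in the control and 2.90 to 6.28 in the treated libraries, without the day 3 maximum. Their part in the Ndufa4l2 reads was not tested. Its partner Ndufa4, named as a complex I subunit and later placed in complex IV, was at 124 RPKM in the control, 161, 171 and 134 after DSS and 227, 156 and 135 after PhIP/DSS. All 6 lay above the control, with 0.63 ± 0.23 on day 1 (edgeR adjusted p = 0.140). Counting both genes in complex IV left the medians of day 1 against the control at 0.18 for complex I and 0.07 for complex IV.

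PhIP before DSS made no difference that passed the test. The fitted log2 fold change of PhIP/DSS against DSS was above 0 for 39 of 64 genes (48.2% of all genes tested), its median was 0.03 against -0.01, and 0 of 64 had an unadjusted p under 0.05 (3.66% of all genes). Values ran from -0.34 ± 0.42 for Ndufa4l2 and -0.29 ± 0.38 for Cox6b2, both at few reads, and -0.17 ± 0.11 for Ndufc1, to 0.21 ± 0.12 for Ndufb2 and 0.25 ± 0.19 for Ndufs5. Ndufs5 was at 13.05 RPKM in the control, 17.2, 15.4 and 9.20 after DSS and 18.4, 17.4 and 13.4 after PhIP/DSS, above the DSS library on each day. By day, PhIP/DSS exceeded DSS for 40, 41 and 46 of the 64 genes on days 1, 3 and 7, beside 50.9%, 53.3% and 53.5% of all genes. The median log2 ratios were 0.03, 0.02 and 0.06, beside 0.01, 0.02 and 0.02 for all genes. The median standard error was 0.08, so differences of a few percent between the arms would not be seen.

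Other genes of mitochondrial respiration ran lower on day 7 than on day 1 as well. For ATP synthase, the complex that uses the proton gradient, 17 of 17 genes were below 0 in that comparison with a median of -0.31. All 13 tricarboxylic acid cycle enzymes were below 0 (median -0.38), and so were all 78 mitochondrial ribosomal proteins (median -0.47). Assembly factors were below 0 for 12 of 14 genes of complex I (median -0.33), 4 of 4 of complex II, 4 of 5 of complex III and 19 of 19 of complex IV (median -0.26). As in the respiratory chain, 0 of these passed the adjusted threshold with edgeR.

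Relative to the control the lists parted. On day 1, 77 of 78 mitochondrial ribosomal proteins were above 0 with a median of 0.51, and 15 of 17 ATP synthase genes with a median of 0.16, whereas the 13 tricarboxylic acid cycle genes had a median of -0.01, with 6 above and 7 below. On day 7, the tricarboxylic acid cycle genes were all below 0 with a median of -0.31, the ATP synthase genes had a median of -0.22 with 14 of 17 below, and the ribosomal proteins were split 39 to 39 with a median of 0.00. The respiratory chain genes, at 0.18 on day 1 and -0.15 on day 7, lay between these lists on both days. Differences between lists were not tested.

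Transcriptional regulators of mitochondrial genes had no shared direction, with 7 of 13 above 0 and 6 below in day 7 against day 1. Ppargc1a, which encodes the coactivator PGC-1alpha that drives mitochondrial biogenesis, was at 19.8 RPKM in the control, 6.16, 7.07 and 7.68 after DSS and 3.37, 6.60 and 10.4 after PhIP/DSS. Every treated library was below the control, and the log2 fold change was -2.09 ± 0.36 on day 1, -1.51 ± 0.36 on day 3 and -1.10 ± 0.36 on day 7 (edgeR adjusted p = 0.071, 0.174 and 0.254). Its lowest level in each arm was on day 1, when the summed level of the respiratory chain genes was highest. A link between these levels was not tested. Hif1a, the oxygen-regulated factor known to act on Ndufa4l2 and Cox4i2, was at 55.0 RPKM in the control and 78.8 to 95.1 in the treated libraries, with 0.58 ± 0.14 on day 1 and 0.74 ± 0.14 on day 7 (edgeR adjusted p = 0.083 and 0.142).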

How the data were processed

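Per the labels' protocols, poly(A)-enriched RNA was sequenced on an Illumina HiSeq instrument. Per the file headers, the authors deposited for each library a count of unique reads, a length and an RPKM value per gene. The RPKM equalled reads divided by length and library total. The submitters' processing notes name mm10 and FastQC. Not given in the sources used here are the aligner, the counter, the annotation and the strand. Genes absent from a library's table were entered as 0 reads.

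Symbols, positions and promoters came from RefSeq tables (GRCm38.p6), and 17983 of 18036 identifiers had a symbol. The filter (1 RPKM or more in 2 or more libraries) left 12061 genes, whose counts entered edgeR 4.0.16 (TMM, quasi-likelihood test, two-sided, Benjamini-Hochberg adjustment over all genes, threshold 0.05). Common dispersion was 0.0563, a coefficient of variation of 23.7%. The script was tested on simulated data. Alternatives were DESeq2 1.42.0, limma 3.58.1 on log2(RPKM + 1) and log2(RPKM + 0.1), other scalings, no filter, no PhIP term, no day block, and each library left out. Ratios with few reads carry exact 95% intervals that, like the 3-read limit for 0 reads, cover counting error only.

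The genes and lists were chosen with earlier results of these data known. Described individually were complex II, Cycs, core subunits, isoform pairs, and the 3 highest and 3 lowest genes of each comparison. Others, such as Ndufs4, were named after their values were seen. Of the 64 tested genes of the respiratory chain, 1 entered all counts and medians, but its own values are not reported here. Complexes were compared by counts and medians without a test. No condition has replicate libraries.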

Additional observations from a re-analysis of the deposited data

Results flagged for a closer look

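Cox8b, which did not pass the filter on low values and so entered none of the 5 comparisons, had 26 reads in the PhIP/DSS day 1 library against 1 in the control and 0 in the other 5. Its reads stood beside Ucp1 and other fat cell transcripts of the same library, and the part of those cells was not tested.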

How the results depend on the processing

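Directions were steadier than calls. The main edgeR fit called no gene, so a reversal of a called value could arise only for genes called under another setting. None of those reversed. With DESeq2 1 gene was called in day 1 against the control and 7 in day 7 against day 1, and 3, 1 and 4 genes had an unadjusted p under 0.05 on days 1, 3 and 7 against the control. With no PhIP term 2 genes, Cycs and Ndufa5, were called on day 1, or 3.12% beside 10.8% of all genes. For PhIP/DSS against DSS, 1 gene had an unadjusted p under 0.05 with no filter, and 1 with limma at either pseudocount. With 1 library left out, the genes called ranged from 0 to 7 for day 1 (7 without DSS day 1, or 10.9% beside 35.5% of all genes), 0 to 1 for day 3, 0 to 1 for day 7, and 0 to 18 for day 7 against day 1. Those at an unadjusted p under 0.05, Ndufa4l2 counted, ranged from 3 to 13, 0 to 6, 0 to 15 and 11 to 42, and from 0 to 1 for PhIP/DSS against DSS. Leaving out a library left 1 residual degree of freedom and, for a day 1 library, raised the calls among all genes to between 786 and 4280 in the 4 comparisons of days. Genes above 0 in day 7 against day 1 ranged from 2 to 7, and medians of the 64 genes from 0.16 to 0.18 on day 1, -0.19 to -0.14 on day 7 and -0.38 to -0.31 for day 7 against day 1. Day 3 medians near 0 took either sign (0.00 with TMM, between -0.00 and 0.01 with a library left out). Library totals moved PhIP/DSS above DSS from 39 to 46 genes of 64. The arms were paired by day in PhIP/DSS against DSS, through the day levels of the model, and 0 of the 64 genes were called there with no day block too.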
